A study of Mus musculus with 8 samples.

Results

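The genes that tag muscle proteins for destruction, and the transcription factors that switch them on, were followed in hearts whose cardiomyocytes had lost Mettl3. Trim63, Trim55, Trim54, Fbxo32, Foxo1 and Foxo3 were taken by gene symbol from the deposited gene table, so that 6 of its 23045 genes are described here, and each symbol matched a single row. METTL3 is the enzyme that writes N6-methyladenosine (m6A) on RNA. RNA of whole hearts had been sequenced in 4 WT and 4 Mettl3 KO libraries. The WT mice were Mettl3lox/lox, with both alleles flanked by loxP sites, and the Mettl3 KO mice carried the same alleles together with alphaMHC-MerCreMer, a tamoxifen-activated Cre recombinase made in cardiomyocytes. According to the methods, both genotypes were given tamoxifen, on 7 consecutive days and starting at an age of 10 to 16 weeks. The WT mice did not carry the Cre transgene, so loss of Mettl3 and presence of active Cre cannot be told apart. Other cells of the heart kept Mettl3, and in such bulk samples fewer cells of a type and less RNA per cell cannot be told apart. The labels number the libraries and give no animal for each, so p-values measure the spread between these samples.

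Striated muscle removes worn or surplus proteins through the ubiquitin-proteasome system, in which a ligase picks the substrate and joins ubiquitin to it. Trim63 encodes MuRF1, and Trim55 and Trim54 encode its close relatives MuRF2 and MuRF3, RING-finger ligases that sit on the sarcomere, the contractile unit of muscle. Fbxo32 encodes atrogin-1 (MAFbx), the F-box subunit that brings substrates to an SCF ubiquitin ligase. Trim63 and Fbxo32 are widely used as markers of muscle wasting, because both rise in fasting, denervation and unloading. Foxo1 and Foxo3 encode forkhead transcription factors that can switch on both ligase genes. Insulin and IGF-1 signalling, through AKT, phosphorylates the FoxO proteins and holds them in the cytoplasm, a step that transcript levels do not show.

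To give the transcripts in question a sequence, stretches of 30 bases were read from the principal coding transcript of each gene in GENCODE M21. GGACT is a common form of the sequence in which m6A is placed, with the methylated A as the middle base. The stretches are centred on the last GGACT in the coding sequence, which is in capitals, and are written 5′ to 3′ on the transcript strand. A match is a description of letters only, since methylation was not measured in these libraries.
Trim63: ctactttactctGGACTtagaacacatagc
Trim55: tggcgcccataaGGACTgccaggtggctcc
Trim54: cggcgcccacaaGGACTgtgaggtggcccc
Fbxo32: tttcaacagactGGACTtctcgactgccat
Foxo1: tattgagcgcttGGACTgtgacatggagtc
Foxo3: gcaaaccctctcGGACTctctctcaggctc

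Between the end of this GGACT and the end of the coding sequence lay 131 bases in Trim63 and also 131 in Foxo1, 263 in Foxo3, 626 in Trim54, 740 in Fbxo32 and 1169 in Trim55. Outside the GGACT itself, the stretches of the paralogues Trim55 and Trim54 were identical at 20 of 25 positions. The Trim63 transcript held 5 GGACT over 1886 bases, or 2.65 per kb, a density above that of 96.1% of 14322 such transcripts with a median of 1.05 per kb. Trim54 held 3, or 2.09 per kb, above 90.0% of transcripts. The long Foxo1 transcript of 8665 bases held 13, or 1.5 per kb, of which 8 lay after the stop codon. Fbxo32 held 8 over 6976 bases, or 1.15 per kb, with 6 after the stop codon, and Trim55 held 3, or 1.16 per kb. Foxo3 held 5 over 6848 bases, and its 0.73 per kb was above that of 29.8% of transcripts. At least 1 GGACT was found in 92.2% of all transcripts, so its presence does not set these 6 genes apart.

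FoxO factors and the glucocorticoid receptor are both known to act on Trim63. The RefSeq table of promoters (GRCm38.p6) matched Trim63, Trim54, Foxo1 and Foxo3, 4 of the 6 genes, and was searched on both strands from 250 bases before the start of each gene to 50 after it. The FoxO core GTAAACA was found in the Trim63 promoter alone of these 4, as its reverse complement TGTTTAC, and it is held by 3.65% of 32851 promoters. Beside it, with 1 base between, stood GAACANNNTGTTC, the palindrome read by the glucocorticoid receptor, which 19 promoters, or 0.0578%, held. This palindrome was chosen after the sequence had been seen. The window of 30 bases at chr4:134314908-134314937 on the plus strand of GRCm38.p6 has both in capitals, and the end of TGTTTAC is 187 bases before the start of the gene.
Trim63: ctctGAACAGTCTGTTCtTGTTTACgaccc

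Values are read counts normalized by the study with DESeq2 and deposited as whole numbers. They summed to 2839589 to 2916986 per library, and the underlying reads, worked out from gaps among low values, numbered 2731617 to 3061253 in WT and 2631904 to 3052887 in Mettl3 KO libraries. At this depth a value of 0 allows up to 3 reads, which covers counting error only. Mettl3 itself read 105, 133, 118 and 107 in WT against 74, 68, 69 and 78 in Mettl3 KO hearts, a change of -0.67 on the log2 scale (limma adjusted p = 0.000184, SE 0.10). Esr1, whose ligand-binding part is in MerCreMer, went from 16.8 ± 2.87 in WT to 769 ± 67.5 in Mettl3 KO hearts (SD, n = 4 each), and reads of the transgene and of the gene itself cannot be told apart. The defining cardiomyocyte genes Myh6, Tnnt2, Tnni3, Actc1, Pln and Ryr2 were all present in every library, with summed values of 21057 to 22273 in WT and 19602 to 22064 in Mettl3 KO.

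Of the 6 genes, Fbxo32 and Foxo3 passed the test, both higher in Mettl3 KO hearts, and the 3 MuRF genes and Foxo1 did not. A gene was called at an adjusted p under 0.05 in a limma fit to all 20313 genes whose mean value was 1 or more. Among those genes 1607 were called, 7.91%, with 4.72% higher and 3.19% lower. The share was larger for well-measured genes, 17.2% of the 3982 genes whose mean value was 200 or more (7.13% lower), to which all 6 belong. A count of 2 in 6 is therefore given as a description and not as a property of the group.

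**Figure D1:**
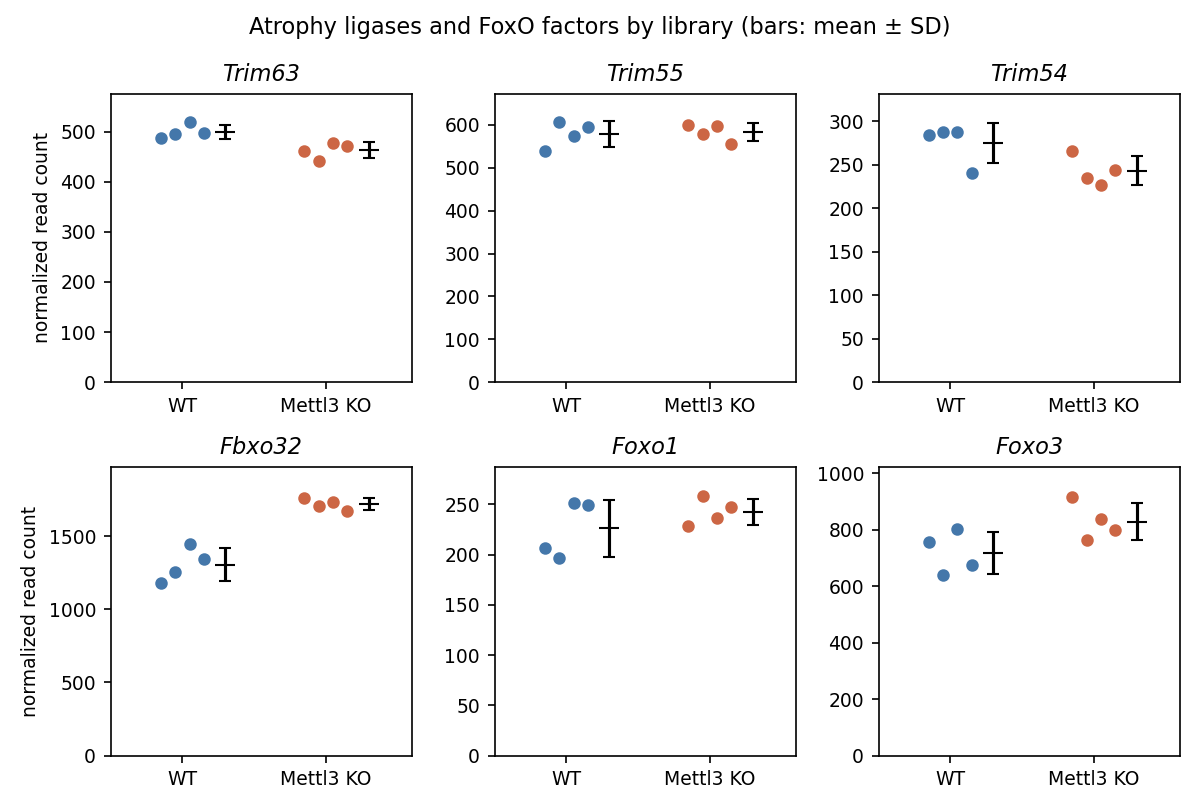
Normalized read count (y axis, from 0) of each gene in each WT (blue) and Mettl3 KO (orange) library, with the mean ± SD of 4 libraries in black. The 4 Mettl3 KO libraries sit above all WT libraries for Fbxo32 and below them for Trim63, and the genotypes overlap for Trim55, Trim54, Foxo1 and Foxo3.

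Fbxo32, the atrogin-1 gene, was the member with the clearest difference. Fbxo32 (ENSMUSG00000022358, mm39 chr15:58039275-58078328, minus strand) had values of 1181, 1252, 1447 and 1341 in WT against 1764, 1703, 1735 and 1669 in Mettl3 KO hearts. All Mettl3 KO libraries were above all WT libraries. The means were 1305 ± 115 and 1718 ± 41.0 (SD, n = 4 each). On the log2(value + 1) scale the change was 0.40 (SE 0.05, 95% interval 0.30 to 0.50, limma adjusted p = 1.25e-05), a fold change of 1.32 with an interval of 1.23 to 1.41. Fbxo32 was an abundant transcript, with a mean above that of 99.3% of genes and 1229 to 1794 reads per library. It ranked 67 of all genes by adjusted p but not by size, since 847 called genes had a larger change in either direction. The Mettl3 KO libraries varied by 2.38% (coefficient of variation) against 2.43% given by counting alone, whereas the WT libraries varied by 8.81% against 2.73%. The spread that the difference has to exceed thus lay mostly among the WT hearts. With any 1 library left out the change was 0.35 to 0.45 and passed the test in 8 of 8 fits. It failed in a limma fit without the mean-variance trend (adjusted p = 0.0582), which called 321 genes in all.

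Trim63, the other widely used wasting marker, did not move with it. Trim63 (ENSMUSG00000028834, mm39 chr4:134042431-134056940, plus strand) had values of 488, 495, 520 and 497 in WT against 462, 441, 478 and 471 in Mettl3 KO hearts. Every Mettl3 KO library was below every WT library, and the means of 500 ± 13.9 and 463 ± 16.1 (SD, n = 4 each) were close. Groups that do not overlap were seen for 11.5% of all genes and for 22.8% of those at 200 or more, and among the members for Fbxo32 and Trim63, 2 of 6. The log2 fold change of Trim63 was -0.11 (SE 0.05, 95% interval -0.21 to -0.01), with a limma p of 0.0371 before and 0.203 after adjustment over all genes. That interval runs from 0.862 to 0.995 of the WT level, so that a rise of the size seen for Fbxo32 lies outside it. None of 18 other settings brought it past the threshold. Of the 6 genes Trim63 had the smallest SD within genotypes, 0.05 on the log2 scale, and varied by 2.78% in WT and 3.47% in Mettl3 KO libraries, below the 4.41% and 4.68% given by counting 417 to 542 reads.

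The MuRF paralogues Trim55 and Trim54 differed in their values but neither passed the test. Trim55 (ENSMUSG00000060913, mm39 chr3:19698638-19746585, plus strand) read 539, 606, 575 and 596 in WT against 601, 578, 597 and 556 in Mettl3 KO hearts. The genotypes overlapped throughout, with means of 579 ± 29.6 and 583 ± 20.6 (SD, n = 4 each). Its log2 fold change was 0.01 (SE 0.05, 95% interval -0.09 to 0.12, limma adjusted p = 0.945), so that changes beyond 1.08-fold up or 0.937-fold down lay outside the interval. Trim54 (ENSMUSG00000062077, mm39 chr5:31274056-31294974, plus strand) read 284, 288, 288 and 241 in WT against 266, 235, 227 and 244 in Mettl3 KO hearts. One WT library, replicate 4, lay among the Mettl3 KO libraries, and the other 3 lay above all of them. The means were 275 ± 22.9 and 243 ± 16.8 (SD, n = 4 each). The log2 fold change was -0.18 (SE 0.07, 95% interval -0.33 to -0.03), with a limma p of 0.0217 before and 0.148 after adjustment. Without WT replicate 4 it was -0.24 with an adjusted p of 0.0492 in limma. With 217 to 311 reads per library, counting alone gave Trim54 a variation of 5.93% in WT and 6.46% in Mettl3 KO, against 8.32% and 6.93% measured.

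Of the FoxO factors, Foxo3 was higher in Mettl3 KO hearts, close to the threshold. Foxo3 (ENSMUSG00000048756, mm39 chr10:42057837-42152751, minus strand) had values of 755, 640, 802 and 674 in WT against 915, 762, 837 and 798 in Mettl3 KO hearts. The lowest Mettl3 KO library lay within the WT range, and WT replicate 3 lay above the lower pair of Mettl3 KO libraries. The means were 718 ± 74.0 and 828 ± 65.6 (SD, n = 4 each), with a log2 fold change of 0.21 (SE 0.06, 95% interval 0.08 to 0.34, limma adjusted p = 0.0470), or 1.16-fold. Counting gave variations of 3.68% and 3.51% for its 642 to 858 reads per library, and the measured ones were 10.3% in WT and 7.92% in Mettl3 KO. The direction was the same in all 18 other settings, but Foxo3 passed in 10 of them and in 2 of the 8 fits with 1 library left out. Leaving out WT replicate 2 gave a change of 0.16 (limma adjusted p = 0.203), and leaving out WT replicate 3 gave 0.26 (limma adjusted p = 0.0112).

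Foxo1 did not pass the test. Foxo1 (ENSMUSG00000044167, mm39 chr3:52175757-52260642, plus strand) read 207, 197, 251 and 249 in WT against 228, 258, 236 and 247 in Mettl3 KO hearts. The WT libraries fell into a lower and a higher pair, and 3 of the Mettl3 KO values lay between them. The means were 226 ± 28.0 and 242 ± 13.1 (SD, n = 4 each) and the log2 fold change 0.11 (SE 0.08, 95% interval -0.06 to 0.27, limma adjusted p = 0.511), an interval that runs from 0.960-fold to 1.21-fold. It therefore includes the change estimated for Foxo3. With 1 library left out the change of Foxo1 ranged from 0.04 without WT replicate 2 to 0.16 without WT replicate 3, and it was 0.07 without WT replicate 1. It did not pass in any of the 8 fits.

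To ask whether pairs of these genes changed unequally, their ratio was taken within each library, where scaling between libraries has no part. Trim63 and Fbxo32 parted the most of 5 pairs. Their ratio was 0.413, 0.395, 0.359 and 0.371 in WT against 0.262, 0.259, 0.276 and 0.282 in Mettl3 KO hearts, with no overlap between genotypes. The means were 0.385 ± 0.0243 and 0.270 ± 0.0111 (SD, n = 4 each). The difference of -0.51 on the log2 scale had p = 0.0286 in a two-sided exact permutation test, the smallest value that this design can give, and 0.143 after adjustment over the 5 pairs. It therefore failed the adjusted threshold, with all 4 Mettl3 KO libraries below all 4 WT libraries. Over 5 pairs, a pair that alone reaches the smallest p cannot pass after adjustment, so this failure was set by the design.

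Among the MuRF genes the ratios moved less. Trim63/Trim55 was 0.865 ± 0.0464 in WT and 0.795 ± 0.0386 in Mettl3 KO hearts (SD), a log2 difference of -0.12 (exact permutation p = 0.0857, adjusted 0.214). Trim55/Trim54 was 2.12 ± 0.251 and 2.41 ± 0.174 (SD), a log2 difference of 0.19 (exact permutation p = 0.143, adjusted 0.238). Trim63/Trim54 was 1.83 ± 0.163 and 1.91 ± 0.153 (SD), a log2 difference of 0.07 (exact permutation p = 0.429, adjusted 0.457). None of these passed, and in each the genotypes overlapped. For the transcription factors, Foxo1/Foxo3 was 0.316 ± 0.0395 in WT and 0.295 ± 0.0382 in Mettl3 KO hearts (SD), a log2 difference of -0.10 (exact permutation p = 0.457, adjusted 0.457). A change of Foxo3 relative to Foxo1 was thus not detected. Single libraries moved this difference, to -0.02 without WT replicate 4 or without Mettl3 KO replicate 1, and to -0.17 without WT replicate 1 or without Mettl3 KO replicate 2. They also moved Trim63/Trim54, to between 0.02 without Mettl3 KO replicate 3 and 0.13 without WT replicate 4.

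**Figure D2:**
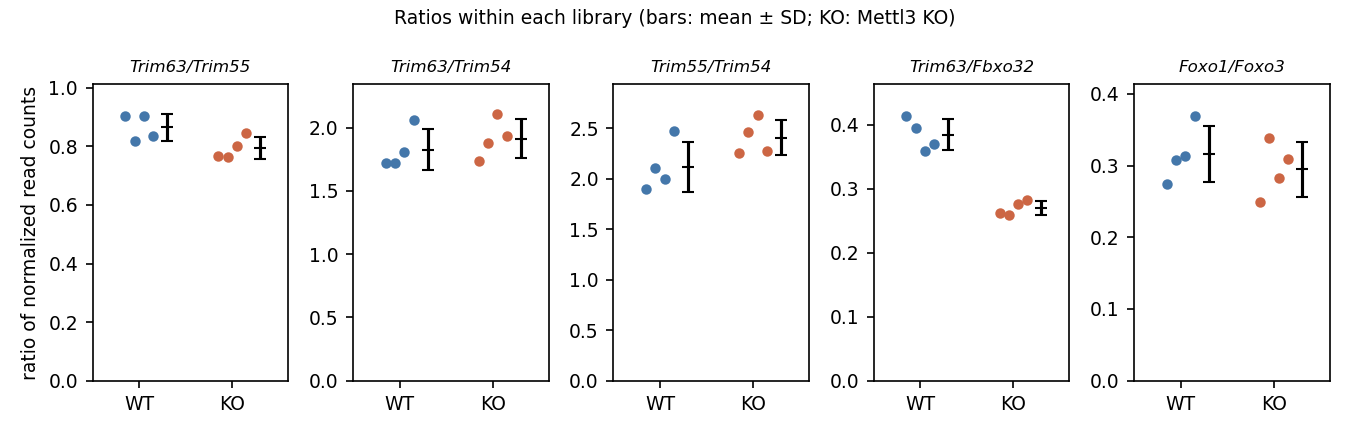
Ratio of the normalized read counts of 5 gene pairs (y axes, from 0) within each WT (blue) and Mettl3 KO (orange) library, with the mean ± SD of 4 libraries in black. Trim63/Fbxo32 lies between 0.359 and 0.413 in WT and between 0.259 and 0.282 in Mettl3 KO libraries, and the other pairs overlap between genotypes.

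Levels can be compared between genes only per transcript length. Per kb of principal transcript, WT hearts held Trim63 at 265 ± 7.36, Trim55 at 223 ± 11.4, Trim54 at 192 ± 16, Fbxo32 at 187 ± 16.5, Foxo3 at 105 ± 10.8 and Foxo1 at 26.1 ± 3.23 normalized read counts (SD, n = 4). In this order Trim54 and Fbxo32 overlapped over the libraries and the other neighbours did not. In Mettl3 KO hearts Fbxo32 stood at 246 ± 5.87 and Trim63 at 245 ± 8.52, overlapping each other, followed by Trim55 at 225 ± 7.94, Trim54 at 169 ± 11.7, Foxo3 at 121 ± 9.58 and Foxo1 at 28.0 ± 1.51. Fbxo32 thus went from the lowest mean of the ligases to a level shared with Trim63. The order depends on the length used for Trim63. Over all its annotated exons, 2842 bases that include noncoding transcripts, Trim63 stood at 176 in WT and 163 in Mettl3 KO hearts, the lowest of the ligases in both. The FoxO factors were below every ligase per kb on either length.

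**Figure D3:**
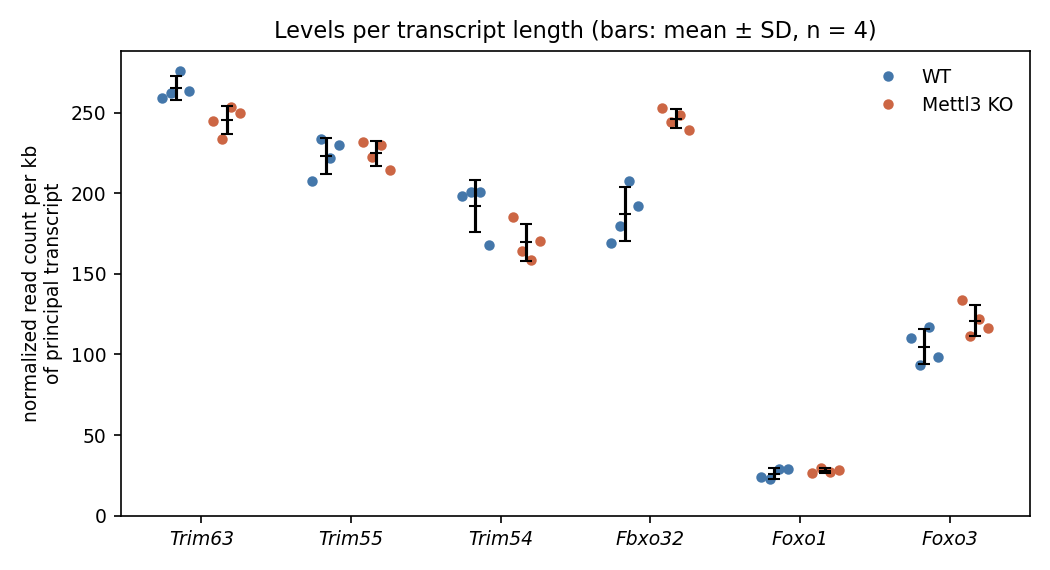
Normalized read count per kb of principal transcript (y axis, from 0) of each gene in WT (blue) and Mettl3 KO (orange) libraries, with the mean ± SD of 4 libraries in black. Fbxo32 goes from 187 to 246 and meets Trim63 at 245, and Foxo1 is the lowest in both genotypes.

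The genes around the members were read from 8 lists, which hold 130 tested genes besides the 6. Of these, 9 passed the test as higher and 2 as lower, 8.46% in all against the 7.91% of all genes, with a median log2 fold change of 0.01 against -0.01 over all tested genes. A share so near that of all genes does not set the lists apart. Among the other FoxO factors, Foxo4 had means of 211 and 198 (log2 fold change -0.10, limma adjusted p = 0.498), and Foxo6 was low, at 11.5 and 12.0. Of the 19 genes of insulin, IGF-1, AKT and AMPK control of FoxO, 2 (10.5%) passed, both higher, and the list's median was -0.01. Of these Irs1, the docking protein that links the insulin receptor to PI3-kinase, read 600, 682, 629 and 608 in WT against 861, 854, 830 and 766 in Mettl3 KO hearts. The genotypes did not overlap, and Irs1 changed by 0.39 on the log2 scale (limma adjusted p = 2.49e-05, SE 0.05). The members that did not pass included Akt1, with means of 500 and 462 (limma adjusted p = 0.233), and Igf1r, with 462 and 493 (limma adjusted p = 0.429).

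Of 21 other ubiquitin ligases known from muscle and heart, 4 were higher and 1 lower, 23.8% against the 7.91% of all genes and the 17.2% of genes at 200 or more, to which most of the list belongs, and the median was 0.03. Asb2, a substrate receptor of a cullin ligase in striated muscle, read 832, 881, 886 and 832 in WT against 1142, 1025, 1104 and 969 in Mettl3 KO hearts (log2 fold change 0.30, limma adjusted p = 0.000344). Mul1, a ligase of the outer mitochondrial membrane, went from 183 ± 15.3 to 241 ± 24.5 (SD, n = 4; log2 fold change 0.40, limma adjusted p = 0.00303). Fbxo30, the F-box protein also called MUSA1, went from 297 ± 11.2 to 349 ± 18.9 (SD, n = 4; 0.23, limma adjusted p = 0.0166). None of these 3 overlapped between genotypes. Fbxl22, an F-box protein of the cardiac sarcomere, did overlap, with 118, 167, 107 and 158 in WT against 136, 218, 228 and 233 in Mettl3 KO hearts (0.56, limma adjusted p = 0.0183), and passed in 12 of 18 other settings.

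Of the machinery that the ligases share, 2 lists were read. Of 11 genes for the SCF partners of atrogin-1, for ubiquitin and for the activating enzymes, none passed the limma test (0 also at an unadjusted p under 0.05, which 20.6% of all genes reached, and 0 by limma voom), and the median was 0.01. Cul1, the scaffold of the SCF ligase, had means of 430 ± 15.5 and 442 ± 5.80, and Skp1, which holds the F-box protein, 369 ± 5.68 and 352 ± 17.1 (SD, n = 4). Of 20 conjugating enzymes, Ube2l3 and Ube2n were higher and none was lower, 10% against the 7.91% of all genes, with a median of -0.02. Ube2l3 went from 188 ± 7.37 to 235 ± 9.38 (SD, n = 4; log2 fold change 0.32, limma adjusted p = 0.00323) without overlap. Ube2n, which builds ubiquitin chains with a signalling role, went from 109.3 ± 10.7 to 145 ± 17 (SD, n = 4; 0.40, limma adjusted p = 0.0117) with overlap.

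Other genes known to be under FoxO control were listed as well. Of 20 such targets, Sesn3 was higher, Bcl2l11 lower and 18 did not pass, with a median of 0.05. The 10% called is close to the 7.91% of all genes, so the count is a description. Sesn3, a sestrin that restrains mTORC1, read 197, 232, 179 and 220 in WT against 234, 311, 277 and 290 in Mettl3 KO hearts (log2 fold change 0.42, limma adjusted p = 0.00312). Bcl2l11, the pro-apoptotic gene also called Bim, read 167, 156, 184 and 163 in WT against 103, 143, 128 and 127 in Mettl3 KO hearts (-0.42, limma adjusted p = 0.00576). Both were without overlap between genotypes and moved by nearly the same amount in opposite directions. Pdk4, a FoxO target that blocks glucose oxidation, spread widely, with 768, 728, 1103 and 1299 in WT against 623, 1227, 1090 and 953 in Mettl3 KO hearts. The autophagy gene Map1lc3b had means of 182 ± 15.8 and 187 ± 13.5, and the cell cycle inhibitor Cdkn1b 236 ± 10.4 and 228 ± 10.7 (SD, n = 4).

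None of 17 other transcriptional regulators of the ligases passed the limma test, with 3 at an unadjusted p under 0.05 (20.6% of all genes), 0 by limma voom and a median of -0.00. Nr3c1, the glucocorticoid receptor, had means of 840 ± 12.1 and 840 ± 28.7 (SD, n = 4). Fkbp5, a gene that glucocorticoids raise, read 111, 68, 83 and 110 in WT against 71, 118, 207 and 142 in Mettl3 KO hearts (log2 fold change 0.46, limma adjusted p = 0.211). With 1 library left out this ranged from 0.22 without Mettl3 KO replicate 3 (limma adjusted p = 0.647) to 0.73 without Mettl3 KO replicate 1 (limma adjusted p = 0.00633). Of these 8 fits 1 passed. None of 20 substrates and binding partners passed either, with 3 at an unadjusted limma p under 0.05, 0 by limma voom and a median of 0.02. Titin (Ttn), to which the MuRF proteins bind at the sarcomere M-band, had means of 71020 ± 2289 and 72294 ± 4177 (SD, n = 4). Eif3f, a translation factor that atrogin-1 marks for degradation, had 172 ± 10.6 and 164 ± 8.49 (SD, n = 4). Protein levels were not measured.

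**Figure D4:**
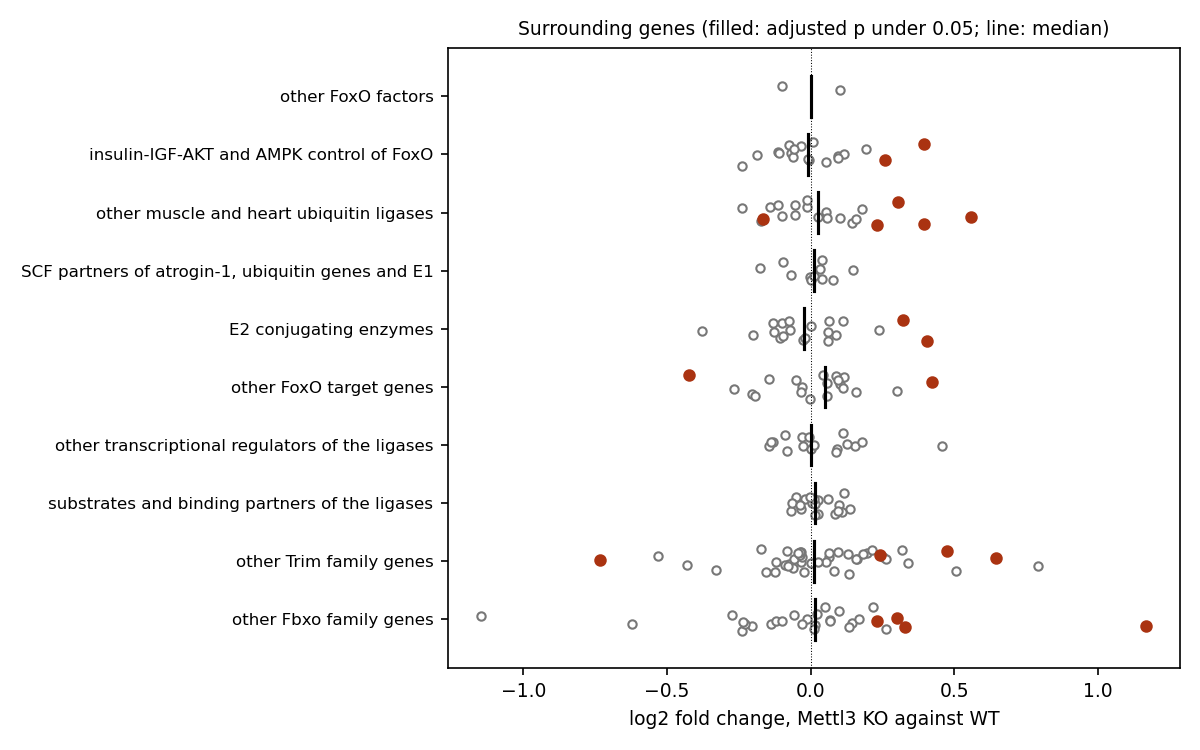
Log2 fold change (x axis, Mettl3 KO against WT) of each tested gene of the 8 lists and of the remaining Trim and Fbxo genes, without the 6 members, filled red where the limma adjusted p was under 0.05, with a black line at each list's median. The medians lie between -0.02 and 0.05, and filled points lie on both sides of 0.

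The families that the ligases are named after were compared as well. Of 44 other tested Trim genes 3 were higher and 1 lower, and of 29 other tested Fbxo genes 4 were higher and none lower. These are shares of 9.09% and 13.8%, beside 7.91% of all genes (4.72% higher and 3.19% lower). The median log2 fold change of both together was 0.01. Trim16 went from 90.3 ± 17.7 to 140 ± 10.1 (SD, n = 4; log2 fold change 0.64, limma adjusted p = 0.000944), Trim8 from 340 ± 19.0 to 402 ± 21.0 (0.24, limma adjusted p = 0.0117) and Trim13 from 44.0 ± 5.60 to 61.5 ± 7.51 (0.47, limma adjusted p = 0.0376). Trim14 went from 38.3 ± 8.02 to 23.5 ± 9.47 (-0.73, limma adjusted p = 0.0469), with overlap. Trim14 passed in 7 of the 18 other settings and in 1 of the 8 fits with a library left out, and Trim13 in 10 and 2. Fbxo22 went from 143 ± 13.1 to 180 ± 8.73 (0.33, limma adjusted p = 0.0130) and Fbxo28 from 140 ± 8.25 to 172 ± 3.77 (0.30, limma adjusted p = 0.0152), beside Fbxo30 above. The fourth, Fbxo36, was named after its values were seen and was low, at 4.25 ± 1.5 and 10.8 ± 2.99 (1.17, limma adjusted p = 0.0366), and passed in 10 of 17 other settings and 2 of 8 fits with a library left out. All of these were at lower values than Fbxo32.

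For each member, the genes with the closest profile over the 8 libraries were looked up, and up to 3 are named, among 12027 genes whose mean value was 20 or more. Likeness was the root mean square difference of log2(value + 1) after centring each gene on its WT mean, a measure that all genes with little spread share. Fbxo32 was closest to Zfp651 (0.0438), Ubap1 (0.0486) and AI597479 (0.0497), which had log2 fold changes of 0.39, 0.34 and 0.38. Foxo3 was closest to Plekha6 (0.0374), Tgfbr2 (0.0453) and Vps9d1 (0.0490). Trim63 was close to Sod1 (0.0174) and Kmt2d (0.0227), Trim55 to Mdh2 (0.0231), Nf2 (0.0266) and Filip1 (0.0275), and Trim54 to Syngr2 (0.0486) and Ap3b1 (0.0525). Foxo1, the member with the widest spread in WT, had its nearest genes farthest away, Brip1os (0.0551), Ramac (0.0562) and Rhoj (0.0615). No member was among the 3 closest genes of another.

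Markers of some other heart cells moved with genotype. The summed value of 6 fibroblast genes, 5 of which were higher, was 3115 to 3495 in WT and 3890 to 4546 in Mettl3 KO libraries. For 6 endothelial genes, 4 of which were lower, it was 3989 to 4243 and 3478 to 3834. The called genes were 83.3% of the fibroblast and 66.7% of the endothelial list, beside 7.91% of all genes. In limma without a trend 0 of either list were called, with 5 and 4 at an unadjusted p under 0.05. Of the 6 cardiomyocyte genes 1, Ryr2, was lower and none higher. Among genes of smooth muscle and pericytes (6) and of macrophages (5) none passed the limma test, with 3 and 0 at an unadjusted p under 0.05 and 0 in each list by limma voom. FoxO genes are read in many cell types, whereas MuRF genes and Fbxo32 are best known from muscle, and the part of cell composition in the values of Fbxo32 and Foxo3 was not tested. Of 4 atrial genes 3 were higher, with 2 called by limma voom and 0 by limma without a trend. Among the 3 was Bmp10, at 0 in all WT libraries and in Mettl3 KO replicate 1. It was at 195, 158 and 358 in Mettl3 KO replicates 2, 3 and 4. Replicate 1, without Bmp10, had the highest Fbxo32 (1764) and Foxo3 (915) of the Mettl3 KO libraries. Without it the log2 fold change was 0.39 for Fbxo32 (limma adjusted p = 3.60e-05) and 0.16 for Foxo3 (limma adjusted p = 0.135). Skeletal muscle myosins Myh1, Myh2 and Myh4 were low, at 2 to 14 in any library, and of 7 skeletal muscle genes 1, Tnni2, passed as lower, with 0 by limma voom and 0 by limma without a trend.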

How the data were processed

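Whole-heart RNA had been sequenced in 4 WT and 4 Mettl3 KO libraries. According to the methods and the submitters' processing notes, the authors trimmed reads with Trimmomatic 0.39, aligned them to mm39 with STAR 2.7.11a, removed duplicates with Picard 3.1.1, counted by gene and strand with featureCounts 2.0.4 and normalized with DESeq2 1.36.0. The deposited values are normalized counts rounded to whole numbers, treated as a score, so no test for raw counts was run. Removing duplicates lowers the values of short, abundant transcripts.

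Library factors (0.927 to 1.11) were recovered by maximum likelihood from skipped or crowded low values, and on 8 simulated libraries the largest error was 8e-06. limma 3.58.1 (R 4.3.3), with a trend and genotype as the only term, was run on log2(value + 1) for genes averaging 1 or more. Tests were two-sided, p was adjusted by Benjamini-Hochberg over all 20313 genes, and fold changes on this scale understate those of low genes. On simulated counts with a dispersion of 0.005, changes of 0.3 on the log2 scale were recovered for 18.2% of 33 genes averaging 200 or more and changes of 1 for 100%, so a missed call of a small change is common at this size.

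Ratios of members were tested by exact permutation. Named were all members, every listed pathway gene with an adjusted p under 0.05 (at most 8 a list), up to 3 per family and direction, and the 3 nearest profiles. Other genes named with values were examples chosen after their values were seen. The members, lists and rules were chosen with earlier results of these data known. Gene locations (mm39) came from the deposited table. Transcript lengths and sequences came from GENCODE M21 and promoters from RefSeq, both on an earlier mouse build. Myog and Ampd1 of the lists were not analysed here. Some genes that these rules name are not reported here, although the counts and medians of the lists include them. Alternatives were other scalings, filters and pseudocounts, limma voom, limma without trend, the replicate number as a block and each library left out.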

Additional observations from a re-analysis of the deposited data

Results flagged for a closer look

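Of 48 groups of 4 libraries, from 24 genes, 2 held a library far from the others, and chance marks about 1 in 20 such groups, or 2.4 here. Trim54 in WT libraries was one, with replicate 4 at 241 and the others at 284 to 288, a gap of 0.915 of the range. Fbxl22 in Mettl3 KO libraries was the other, with replicate 1 at 136 and the others at 218 to 233, a gap of 0.845 of the range.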

How the results depend on the processing

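Fbxo32 was higher in all 18 other settings and fell short of the threshold only in limma without a trend (0.40, adjusted p = 0.0582), where 321 genes were called in place of 1607. That setting called 0 of the 6 members (1 at an unadjusted p under 0.05), 0 of the 130 list genes (14 unadjusted) and 0 of the 73 other Trim and Fbxo genes (16 unadjusted), and Foxo3 stood at 0.21 (adjusted p = 0.333). With a pseudocount of 0.5, Foxo3 stood at 0.21 (limma adjusted p = 0.0509), leaving 1 member called. The cause was not tested.

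With 1 library left out, 1005 to 1593 genes were called, the lowest without Mettl3 KO replicate 3. Of the members 1 to 2 were called, of the list genes 8 to 14 (8 without Mettl3 KO replicate 2), and of the other Trim and Fbxo genes 3 to 9. The families fell to 5 without WT replicate 2, 5 without WT replicate 3, 3 without WT replicate 4 and 4 without Mettl3 KO replicate 2. Foxo3 ranged from 0.16 to 0.26, with limma adjusted p of 0.0112 to 0.203, and passed only without WT replicate 3 or Mettl3 KO replicate 2. Trim54 ranged from -0.24 to -0.15 and passed only without WT replicate 4. Trim55 ranged from -0.023 to 0.033 and turned to -0.023 without WT replicate 1, to -0.0042 without Mettl3 KO replicate 1 and to -0.00095 without Mettl3 KO replicate 3, never near the threshold. Foxo1 ranged from 0.04 to 0.16. No ratio passed with a pseudocount of 0.5 or 5 or with a library left out (exact permutation test, lowest adjusted p = 0.0714). In these settings too, a pair that alone reaches the smallest p cannot pass, so they do not check the result for Trim63/Fbxo32. With a block the exact test is too small to pass. The 18 other named genes kept their direction in all 323 values and fell below the threshold in 56, of which 18 were without a trend and 34 with a library left out.

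With the replicate number as a block, 1346 genes, 2 members, 12 list genes and 8 family genes were called, and Fbxo32 had a limma adjusted p of 0.000317 and Foxo3 of 0.0186. Libraries that share a number had correlations of their deviations of 0.05, 0.04, -0.04 and 0.09, and not every library correlated best with its own number. Pairing by number was thus not seen, although so few libraries cannot exclude it. At 206 to 311 reads per library for Foxo1 and Trim54, counting alone gave a variation of 5.93% to 6.57%, which limits the size of change that can be seen.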
